A study of Mus musculus with 6 samples.

Results

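The genes described here make cholesterol and fatty acids from acetyl-CoA, together with the SREBP factors that control their transcription, and their RNA was compared between liver tumor cell lines of 2 genotypes. The 32 genes were picked by name as members of the SREBP pathway, a rule that uses no measured value: 17 enzymes of sterol synthesis, 4 regulators (*Srebf1*, *Srebf2*, *Scap* and *Insig1*), the sterol carrier *Stard4* and 10 enzymes of fatty acid synthesis. They are 32 of the 20856 genes with values. With a filter on low values, 31 of them were among the 11617 genes tested; *Acacb* was too low.

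The lines were grown out of liver tumors of C57BL/6 mice, which were female and bought at 8 to 10 weeks of age. In each mouse a *Myc* transposon and a px330 plasmid with Cas9 and a guide RNA had been injected into the tail vein under high pressure, which takes DNA into hepatocytes. The guide was sgp53 (against *Trp53*) for 3 lines, called *Myc*; sg*Trp53*, and sgMll3 (against *Kmt2c*, which encodes the histone methyltransferase MLL3) for the other 3, called *Myc*; sg*Kmt2c*. All 6 lines therefore carry the *Myc* transposon, no line has both genes untargeted, and the lines are not isogenic. They were cultured in DMEM with 10% FBS on collagen-coated plates until no fibroblasts were seen, with no other treatment. The 3 lines of a genotype came from different mice, and the labels name sg*Kmt2c* replicates 2 and 3 as 2A and 2T1. In a bulk culture a smaller share of expressing cells cannot be told apart from less RNA per cell.

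Cells keep their sterol content steady through SREBP transcription factors, which are held in the membrane of the endoplasmic reticulum by SCAP and the INSIG proteins while sterol is plentiful. When sterol falls, SCAP carries SREBP to the Golgi, proteases release its active part, and this part binds sterol regulatory elements in promoters together with the factors NF-Y and SP1. SREBP-2, from *Srebf2*, acts mainly on cholesterol synthesis, and SREBP-1, from *Srebf1*, mainly on fatty acid synthesis, and the liver is a principal site of both pathways.

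Libraries held 3680068 to 6878625 reads on the listed genes, and each sg*Kmt2c* library was shallower than every sg*Trp53* library. *Trp53* stood at 17.2, 17.6 and 19.4 RPKM where it was targeted and at 92.2, 124 and 121 RPKM where it was not. *Kmt2c* overlapped, at 24.2, 18.4 and 19.2 against 19.7, 25.0 and 9.51 RPKM, so its transcript does not check the label. *Myc* was read in every line, at 47.1 to 98.1 RPKM. An RPKM value is a read count divided by the length listed for the gene in kilobases and scaled to the reads of its library. Of 8 hepatocyte markers, 6 reached no more than 4.36 RPKM in any line, among them *Alb* (albumin), while *Hnf4a* and *Fgb* were higher in sg*Kmt2c* replicates 1 and 3, as given below with the other markers.

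Promoter windows from 250 bases before to 50 bases after a transcript start were available for 26 of the 32 genes (RefSeq, GRCm38.p6, 33 windows). They were read for 4 motifs on both strands, and a gene counted when any of its windows held the motif. The NF-Y box CCAAT was present for 23 of the 26 genes, and for all 14 sterol synthesis enzymes with a window, against 43.4% of the tested genes with a window and 41.1% of all genes. The strict sterol regulatory element TCACNCCAC was found in 1 member, *Hmgcs1*, and in 1.41% of tested genes. The SP1 box GGGCGG was present for 20 of the 26 members against 71.7% of tested genes, and the E-box CACGTG, which the MYC protein can bind, for 6 of the 26 against 12.3%. A match is a description of letters and not a site of binding. The promoters of *Hmgcs1* (chr13:119690101-119690400, plus strand), *Nsdhl* (chrX:72918271-72918570, plus strand), *Hsd17b7* (chr1:169969156-169969455, minus strand) and *Ebp* (chrX:8193463-8193762, minus strand) are shown 5′ to 3′, *Hmgcs1* because it holds the sterol regulatory element and the others because they had the smallest p-values among the members. Capitals mark CCAAT, its reverse complement ATTGG and, in *Hmgcs1* alone, TCACCCCAC.
*Hmgcs1*: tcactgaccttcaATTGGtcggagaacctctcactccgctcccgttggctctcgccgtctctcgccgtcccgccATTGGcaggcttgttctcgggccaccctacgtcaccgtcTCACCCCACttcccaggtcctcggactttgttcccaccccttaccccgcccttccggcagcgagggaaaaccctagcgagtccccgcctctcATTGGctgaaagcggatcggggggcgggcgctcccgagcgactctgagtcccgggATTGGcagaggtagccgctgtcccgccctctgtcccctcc
*Nsdhl*: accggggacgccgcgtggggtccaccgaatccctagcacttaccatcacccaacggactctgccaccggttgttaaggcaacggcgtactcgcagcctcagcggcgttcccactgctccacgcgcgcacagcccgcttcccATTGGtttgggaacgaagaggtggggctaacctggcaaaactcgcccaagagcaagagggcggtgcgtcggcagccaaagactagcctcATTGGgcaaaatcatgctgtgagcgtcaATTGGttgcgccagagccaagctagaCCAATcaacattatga
*Hsd17b7*: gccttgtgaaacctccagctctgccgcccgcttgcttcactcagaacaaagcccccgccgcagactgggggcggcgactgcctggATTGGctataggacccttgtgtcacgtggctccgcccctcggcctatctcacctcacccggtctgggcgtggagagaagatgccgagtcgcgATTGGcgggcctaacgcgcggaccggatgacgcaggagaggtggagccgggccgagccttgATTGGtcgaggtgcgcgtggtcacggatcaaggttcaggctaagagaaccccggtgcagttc
*Ebp*: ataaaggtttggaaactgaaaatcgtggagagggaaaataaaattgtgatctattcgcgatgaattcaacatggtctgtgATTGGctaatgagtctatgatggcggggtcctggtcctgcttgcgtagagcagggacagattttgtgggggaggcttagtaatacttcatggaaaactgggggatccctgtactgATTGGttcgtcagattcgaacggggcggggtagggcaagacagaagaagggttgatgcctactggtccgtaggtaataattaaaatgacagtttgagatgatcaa

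The comparison of *Myc*; sg*Kmt2c* with *Myc*; sg*Trp53* lines addressed whether transcription of these enzymes differs between the genotypes. None of the 31 members tested passed an adjusted p under 0.05 (limma on log2(RPKM + 1), adjusted over all genes tested), where 15 of all 11617 genes did (0.129%). The smallest adjusted p of a member was 0.551. At an unadjusted p under 0.05, 3 members were higher in sg*Kmt2c* lines (*Nsdhl*, *Hsd17b7* and *Ebp*) and 0 were lower, against 3.25% of all tested genes higher and 5.34% lower. The lines separated without overlap, with sg*Kmt2c* on the upper side, for 4 members, the same 3 and *Sc5d*, and on the lower side for 0, against 5.72% and 10.4% of all tested genes. Each of these 4 enzymes acts after lanosterol in cholesterol synthesis. For such a separation an exact two-sided permutation test gives p = 0.1, the smallest that 3 lines against 3 allow.

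The fitted log2 fold changes nevertheless lay mostly on 1 side. The fold change was positive for 28 of the 31 members (median 0.40) and for 17 of 17 sterol synthesis enzymes (median 0.60), while 42.0% of all tested genes had a positive value and their median was -0.09. With median-of-ratios scaling of the libraries 48.9% of all genes had a positive value, against 29 of 31 members and again 17 of 17 sterol enzymes. By step, the median was 0.33 over the 6 enzymes of the mevalonate segment, 0.60 over the 3 enzymes from squalene formation to lanosterol and 0.89 over the 8 enzymes after lanosterol. It was 0.25 over the 4 regulators and *Stard4* (4 of 5 positive) and 0.40 over the 9 fatty acid enzymes tested (7 of 9 positive). These medians are descriptions and were not tested, since the members share the 6 lines and are not replicates.

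**Figure D1:**
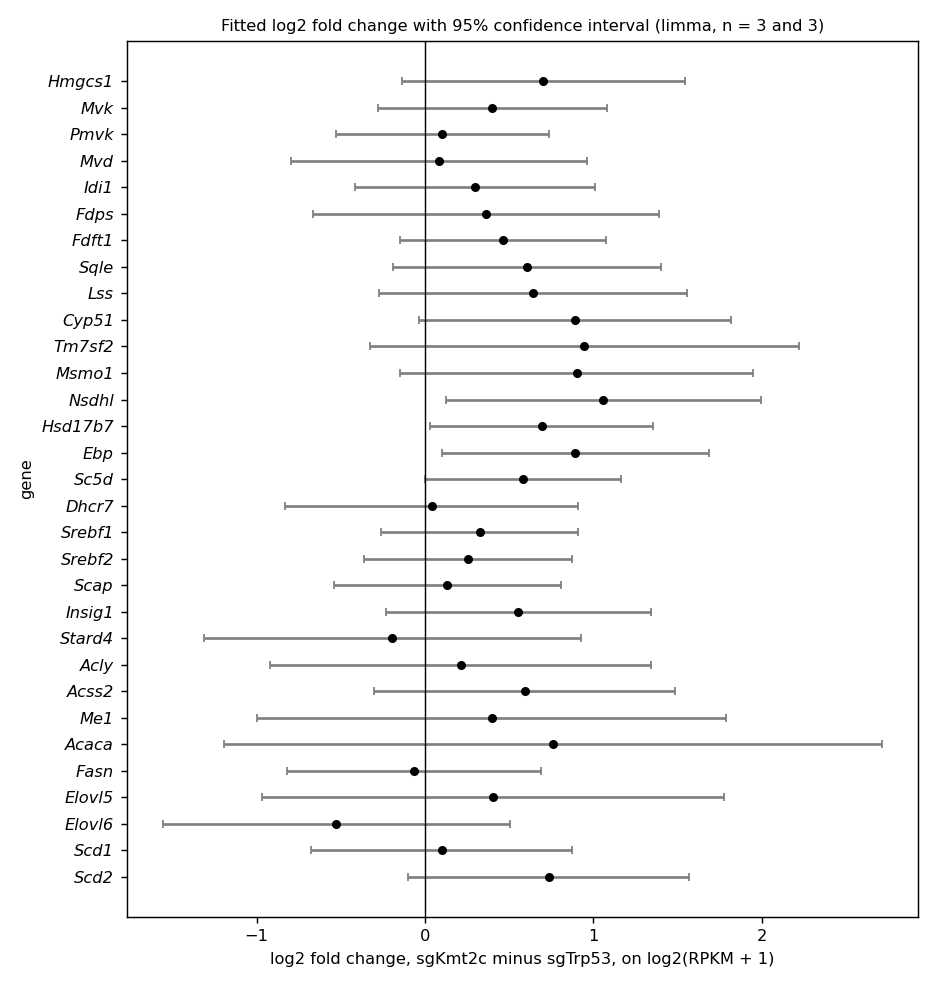
Fitted log2 fold change of the 31 members tested, sg*Kmt2c* minus sg*Trp53* on log2(RPKM + 1) (horizontal axis), with bars for the 95% confidence interval from limma (n = 3 lines in each genotype). All 17 sterol synthesis enzymes, from *Hmgcs1* to *Dhcr7*, have a value above 0, and the interval lies wholly above 0 for *Nsdhl*, *Hsd17b7* and *Ebp*.

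The mevalonate segment joins acetyl-CoA units and turns them into activated isoprenes. *Hmgcs1*, the synthase at its entry, lay at 81.2, 51.7 and 61.5 RPKM in sg*Trp53* lines against 164, 68.0 and 102 RPKM in sg*Kmt2c* lines, with replicate 2 of sg*Kmt2c* inside the sg*Trp53* range. On the log2 scale it differed by 0.70 (95% confidence interval -0.14 to 1.54, adjusted p = 0.628 from limma). *Fdps*, which makes farnesyl diphosphate, lay at 85.5, 84.0 and 82.1 RPKM in sg*Trp53* lines against 195, 55.7 and 116 RPKM in sg*Kmt2c* lines. The sg*Trp53* lines thus nearly coincided, while the sg*Kmt2c* lines lay on both sides of them. The kinases *Mvk* and *Pmvk*, the decarboxylase *Mvd* and the isomerase *Idi1* had log2 fold changes of 0.40, 0.10, 0.09 and 0.30, and their values overlapped between the genotypes. *Mvk* was the mevalonate enzyme that sg*Kmt2c* replicate 1 did not lead, at 14.8 RPKM there against 24.5 RPKM in replicate 3.

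Squalene synthase *Fdft1*, squalene epoxidase *Sqle*, an enzyme that limits the flow of sterol synthesis, and lanosterol synthase *Lss* lead to the first sterol. *Sqle* had means of 32.3 ± 4.14 RPKM (SD, n = 3 lines) in sg*Trp53* and 52.5 ± 21.9 RPKM (SD, n = 3) in sg*Kmt2c* lines, with 0.60 (-0.19 to 1.40) as the fitted log2 difference. *Lss* lay at 206, 210 and 213 RPKM in sg*Trp53* lines against 590, 202 and 295 RPKM in sg*Kmt2c* lines, where replicate 1 was 2.00-fold above the next line and replicate 2 the lowest of all 6. *Fdft1* lay at 28.3 ± 3.33 and 40.3 ± 12.1 RPKM (SD, n = 3 each), and differed by 0.46 log2 units (-0.15 to 1.07). All 3 enzymes were highest in sg*Kmt2c* replicate 1 and next highest in replicate 3. *Fdft1* overlaps the protease gene *Ctsb* in the annotation, and its reads are uncertain to that extent.

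The enzymes after lanosterol remove methyl groups and shift or reduce double bonds on the way to cholesterol. *Nsdhl*, a dehydrogenase that acts in removal of the methyl groups (chromosome X of GRCm38, from 72918557 to 72958514), lay at 14.5, 10.8 and 10.6 RPKM in sg*Trp53* lines against 46.1, 16.0 and 23.0 RPKM in sg*Kmt2c* lines. The groups did not overlap, but the lowest sg*Kmt2c* line was close to the highest sg*Trp53* line. This gave 1.06 as the log2 fold change, with a standard error of 0.392, an interval from 0.12 to 2.00 and the adjusted p = 0.551 named above (limma).

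*Ebp*, the isomerase that moves a ring double bond (chromosome X, from 8185329 to 8193512), lay at 62.6, 38.7 and 45.7 RPKM in sg*Trp53* lines against 139, 64.5 and 81.5 RPKM in sg*Kmt2c* lines. The fit gave 0.89 on the log2 scale (standard error 0.333, interval 0.10 to 1.69, adjusted p = 0.554 from limma). Here replicate 2 of sg*Kmt2c* exceeded replicate 1 of sg*Trp53* by little. *Hsd17b7*, the reductase that ends removal of the methyl groups (chromosome 1, from 169949535 to 169969241), lay at 3.48, 5.01 and 5.51 RPKM against 10.3, 6.53 and 7.71 RPKM. It rested on 98 to 224 reads per library, and the log2 difference was 0.69 (standard error 0.277, interval 0.03 to 1.36, adjusted p = 0.573 from limma). *Sc5d*, a desaturase near the end of the pathway (chromosome 9, from 42254177 to 42264300), lay at 26.8, 21.6 and 25.0 RPKM against 49.8, 29.7 and 34.1 RPKM, a log2 fold change of 0.58 with an interval that just reached 0 (adjusted p = 0.583 from limma).

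*Nsdhl* and *Ebp* both lie on the X chromosome, which was looked at after their values were seen. The 372 tested genes of that chromosome had a median log2 fold change of 0.18, against -0.09 for 11230 autosomal genes, and 69.4% of them had a positive value. Their median difference from the sg*Trp53* mean was 0.21, -0.24 and 0.03 in replicates 1, 2 and 3 of sg*Trp53*, and 0.20, 0.13 and 0.16 in those of sg*Kmt2c*. Both members have fold changes well above the X median. Its part in their values was not tested.

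*Cyp51* and *Msmo1*, which oxidise methyl groups of lanosterol, had log2 fold changes of 0.89 (-0.03 to 1.82) and 0.90 (-0.15 to 1.95), among the highest of all members, and overlapped. *Cyp51* lay at 35.5, 24.5 and 34.4 RPKM in sg*Trp53* lines against 94.5, 33.7 and 62.7 RPKM in sg*Kmt2c* lines. *Msmo1* lay at 41.4, 26.8 and 38.8 against 122, 36.4 and 65.5 RPKM. In each, sg*Kmt2c* replicates 1 and 3 lay above every sg*Trp53* line and replicate 2 among them. The reductase *Tm7sf2* had the widest range of the sterol enzymes within a genotype, with 14.6 RPKM in sg*Kmt2c* replicate 1 against 2.06 to 4.33 RPKM in the other 5 lines. It rested on only 14 to 93 reads per library and overlaps *Vps51*. *Dhcr7*, which completes cholesterol, had the smallest fold change of the sterol enzymes at 0.04 (-0.83 to 0.91), and sg*Kmt2c* replicate 1 was its lowest line at 13.0 RPKM, opposite to its neighbours in the pathway.

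**Figure D2:**
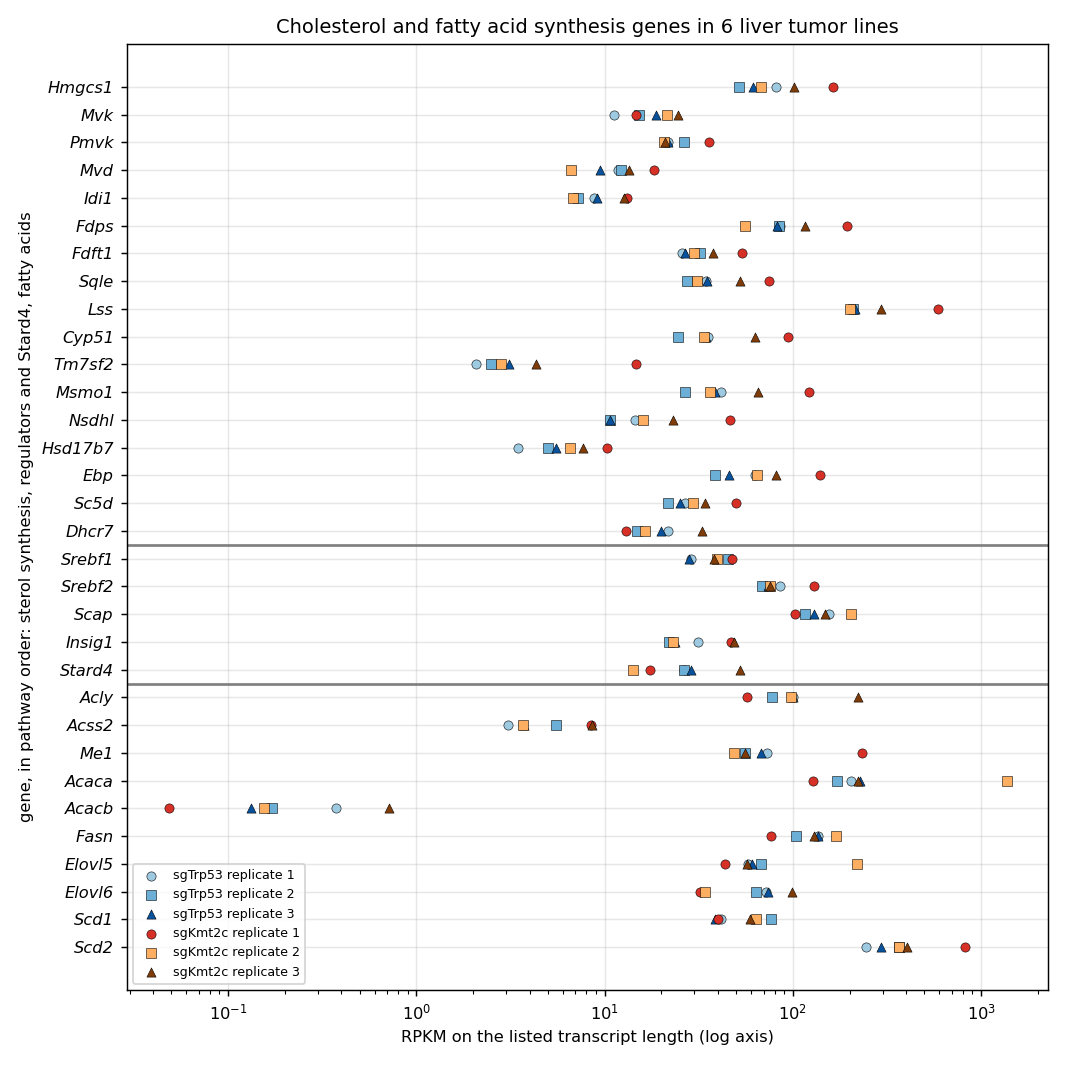
RPKM on a log axis (horizontal) of each of the 32 genes (vertical, in pathway order) in the 6 lines, with blue symbols for the sg*Trp53* and red to brown symbols for the sg*Kmt2c* lines. The blue symbols of a gene usually lie close together, and the red circle of sg*Kmt2c* replicate 1 lies to the right of all others in 15 of the 17 sterol synthesis genes above the upper grey line.

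The sterol enzymes differed among the sg*Kmt2c* lines in a shared order. Replicate 1 was the highest of all 6 lines for 15 of 17 sterol enzymes, as it was for 23.6% of all tested genes, with *Mvk* and *Dhcr7* as exceptions. Its median difference from the sg*Trp53* mean over the 17 was 1.19 log2 units, and its median ratio to that mean was 2.31. Replicate 3 lay above all sg*Trp53* lines in 16 of 17, as it did for 25.9% of all tested genes, with a median difference of 0.64. Replicate 2 had a median difference of 0.08 and lay above the sg*Trp53* range in 5 of 17 (26.5% of all tested genes) and below it in 5 (35.4%). The order replicate 1, then 3, then 2 held for 15 of 17 sterol enzymes and for 18.7% of all tested genes. Over all tested genes the median differences were -0.15, -0.06 and -0.02 for replicates 1, 2 and 3, and replicate 1 was the lowest of the 6 lines for 36.1% of genes. The sterol medians of sg*Trp53* replicates 1, 2 and 3 were 0.08, -0.13 and 0.04, which is the same order of numbers over a narrower range; the numbers are names and pair no lines.

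**Figure D3:**
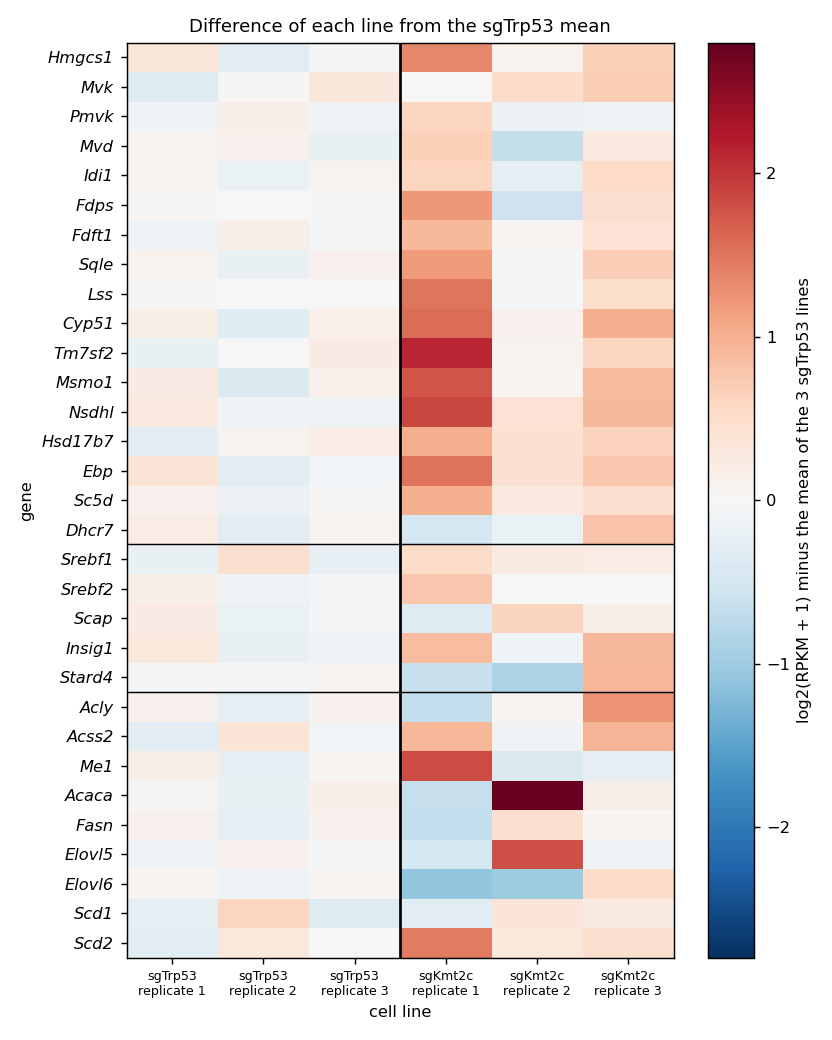
Difference of log2(RPKM + 1) in each line (columns) from the mean of the 3 sg*Trp53* lines for each member tested (rows, in pathway order; red higher, blue lower). In the sterol block at the top sg*Kmt2c* replicate 1 is red for 15 of 17 genes and replicate 3 for 16, replicate 2 is near 0 with a median of 0.08, and in the fatty acid block at the bottom replicate 1 is mostly blue.

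The spread among lines was accordingly wider in sg*Kmt2c* than in sg*Trp53* for all 17 sterol enzymes and for 29 of the 31 members, against 70.7% of all tested genes. The median SD over members was 0.21 log2 units among sg*Trp53* lines and 0.63 among sg*Kmt2c* lines, against 0.25 and 0.41 over all tested genes. Without sg*Kmt2c* replicate 1, the sterol median was 0.35, 14 of 17 enzymes had a positive fold change (*Mvd*, *Pmvk* and *Fdps* did not) and *Nsdhl* was the member left at an unadjusted p under 0.05, against 9.22% of all genes in that fit in either direction. Without sg*Kmt2c* replicate 2, the sterol median was 0.84. In that fit 15 members had an unadjusted p under 0.05, all higher, against 8.82% of all genes in either direction. Without replicate 3 none was higher at that threshold, and *Stard4* and *Elovl6* were lower, against 12.7% of all genes in either direction. Leaving out an sg*Trp53* line left 2 members at that threshold without replicate 1 (6.15% of all genes), 0 without replicate 2 (5.0%) and 0 without replicate 3 (4.41%). No member passed an adjusted p under 0.05 in any of these fits (limma).

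The replicate 1 line also stood apart in cell markers. The summed RPKM of 4 epithelial markers was 776, 24.5 and 498 in sg*Trp53* lines and 3920, 230 and 499 in sg*Kmt2c* lines, and that of 5 biliary and progenitor markers 920, 90.9 and 1008 against 3468, 91.5 and 427. The 8 hepatocyte markers summed to 36.6, 14.1 and 25.0 against 1215, 5.06 and 207, most of it from the nuclear receptor gene *Hnf4a*, at 1186 RPKM in sg*Kmt2c* replicate 1. The 8 fibroblast markers summed to 15.0, 986 and 166 against 0.282, 149 and 110. In sg*Trp53* replicate 2 *Col3a1* reached 814 RPKM and *Pdgfrb* 32.7 RPKM, while *Lum* and *Pdgfra* were under 1 RPKM in every line. The immune markers summed to 5.51 to 58.2 RPKM, with *Cd3e* at 0 and *Ptprc* and *Adgre1* under 1 RPKM throughout, and all 5 endothelial markers were under 1 RPKM. In sg*Kmt2c* lines the epithelial, biliary and progenitor, and hepatocyte sums stood in the order of the sterol enzymes, replicate 1, then 3, then 2. The fibroblast and immune sums did not. Among sg*Trp53* lines replicate 2 was lowest in those same sums and in the sterol median. Replicate 1, highest in the sterol median, was highest in the epithelial and hepatocyte sums. Replicate 3 was highest in the biliary and progenitor sum. Only some single hepatocyte markers had the order replicate 1, then 3, then 2. *Hnf4a*, at 1186, 0.629 and 170 RPKM in sg*Kmt2c* replicates 1, 2 and 3, and *Alb*, at 4.36, 0.797 and 1.60 RPKM, had it. The fibrinogen gene *Fgb*, at 20.1, 0.0712 and 32.5 RPKM, and *Apoa2*, at 1.23, 2.09 and 1.81 RPKM, did not. The rest of that list did not have it either. The part of cell state in the sterol values was not tested.

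The 4 regulators overlapped between the genotypes. *Srebf2*, the main activator of sterol synthesis genes, lay at 85.4, 69.0 and 73.8 RPKM in sg*Trp53* lines against 129, 75.8 and 75.6 RPKM in sg*Kmt2c* lines, where replicate 1 alone stood above the sg*Trp53* range. The fitted log2 difference was 0.25 (-0.36 to 0.87, adjusted p = 0.771 from limma). *Srebf1*, the main activator of fatty acid synthesis genes, lay at 28.7, 45.3 and 27.9 against 47.7, 39.8 and 38.3 RPKM, for which the fit gave 0.32 (-0.26 to 0.91, adjusted p = 0.719 from limma). The value is per gene, so the transcripts of its isoforms were not told apart, and *Srebf1* overlaps *Rai1*.

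*Scap*, the escort protein of SREBP, lay at 156, 116 and 130 RPKM in sg*Trp53* lines against 103, 204 and 148 RPKM in sg*Kmt2c* lines. Its order among the sg*Kmt2c* lines, with replicate 2 highest and replicate 1 lowest, was the reverse of that of most sterol enzymes. *Insig1*, the retention protein that is itself a SREBP target, lay at 31.3, 21.9 and 23.6 against 47.0, 23.2 and 48.6 RPKM, with replicates 1 and 3 above the sg*Trp53* range and replicate 2 within it (log2 fold change 0.56, -0.23 to 1.34, adjusted p = 0.669 from limma). *Stard4*, which carries sterol between membranes, lay at 26.4, 26.3 and 28.9 against 17.4, 14.2 and 52.4 RPKM. In *Stard4* the sg*Kmt2c* lines fell on both sides of a narrow sg*Trp53* range, and replicate 1 was on the low side. In the fit used for these values, the confidence intervals of *Srebf2*, *Srebf1* and *Scap* exclude a 2-fold difference in either direction. Those of *Insig1* and *Stard4* do not. With median-of-ratios scaling the log2 fold changes of *Srebf2* and *Srebf1* were larger, at 0.34 (standard error 0.275) and 0.41 (standard error 0.259). The exclusion is therefore not claimed under that scaling.

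The fatty acid enzymes did not share the order of the sterol enzymes. Replicate 1 of sg*Kmt2c* had a median difference of -0.49 from the sg*Trp53* mean over the 9 tested, against -0.15 over all tested genes. It was the lowest of all 6 lines for 5 of the 9, against 36.1% of all tested genes. The order replicate 1, then 3, then 2 held for 2 of 9, near the 18.7% of all tested genes. The opposite signs of the sterol and fatty acid medians in that line are a description and were not tested. *Fasn*, the synthase that builds palmitate, lay at 136, 105 and 136 RPKM in sg*Trp53* against 76.7, 170 and 130 RPKM in sg*Kmt2c* lines, a log2 fold change of -0.06 (-0.82 to 0.69). Its highest and its lowest line were both sg*Kmt2c*. *Elovl6*, the elongase that extends palmitate, had the most negative fold change of the members at -0.53 (-1.56 to 0.51, adjusted p = 0.731 from limma), with 32.3, 34.3 and 99.1 RPKM in sg*Kmt2c* lines on both sides of the sg*Trp53* range of 63.4 to 73.5 RPKM.

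The enzymes that supply acetyl-CoA and NADPH differed line by line. *Acly*, which cleaves citrate to acetyl-CoA, was 2.20-fold above the next line in sg*Kmt2c* replicate 3 (221 RPKM) and lowest in replicate 1 (56.9 RPKM). *Acss2*, which makes acetyl-CoA from acetate and overlaps *Gss*, lay at 3.08, 5.51 and 3.71 against 8.47, 3.70 and 8.62 RPKM. *Me1*, the cytosolic malic enzyme that yields NADPH (chromosome 9, from 86581371 to 86695953), lay at 72.9, 55.8 and 68.0 RPKM in sg*Trp53* lines against 233, 48.8 and 55.6 RPKM in sg*Kmt2c* lines. Replicate 1 was thus 3.20-fold above the next line, and the remaining sg*Kmt2c* lines lay below the sg*Trp53* range. The log2 fold change of *Me1* was 0.40 with all lines and -0.32 without that line.

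*Acaca*, the acetyl-CoA carboxylase that makes malonyl-CoA for fatty acid synthesis (chromosome 11, from 84129672 to 84401651), had the widest range of all members. It lay at 203, 171 and 227 RPKM in sg*Trp53* lines, from 1102, 810 and 1393 reads, and at 128, 1365 and 222 RPKM in sg*Kmt2c* lines, from 535, 4474 and 845 reads. Replicate 2 was 6.00-fold above the next line, and the other sg*Kmt2c* lines lay within or below the sg*Trp53* range. *Acaca* overlaps the protein-coding gene *Gm11437* in the annotation, and its reads are uncertain to that extent. *Elovl5*, an elongase of polyunsaturated fatty acids (chromosome 9, from 77917364 to 77984519), was high in the same line, at 43.9, 219 and 57.3 RPKM against 57.8, 67.8 and 60.5 RPKM, 3.23-fold above the next line. Without sg*Kmt2c* replicate 2 the log2 fold changes of *Acaca* and *Elovl5* were -0.24 and -0.30, against 0.76 and 0.40 with all lines, and the fatty acid median was -0.03. *Acacb*, the carboxylase tied to the control of fatty acid oxidation, had 20, 8 and 8 reads in sg*Trp53* and 2, 5 and 27 reads in sg*Kmt2c* lines, too few to compare.

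The genes beside *Acaca* and *Elovl5* were looked at after these values were seen. In sg*Kmt2c* replicate 2 *Acaca* was 6.72-fold above the median of the other 5 lines. Its 8 nearest tested genes, 4 on each side, had ratios from 0.548 to 3.43 (median 1.19). The 4 on the side of lower coordinates lay from 0.548 (*Dusp14*) to 0.952 (*Synrg*), and the 4 on the side of higher coordinates from 1.42 (*Aatf*) to 3.43 (*Lhx1*, a gene of 2.04 RPKM in the median of the other lines). For *Elovl5* the ratio was 3.80, and its neighbours ranged from 0.384 to 2.54 (median 1.22), with *Gclc*, which begins glutathione synthesis, as the highest. No neighbour reached the ratio of the member itself. Copy number in these lines was not tested.

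**Figure D4:**
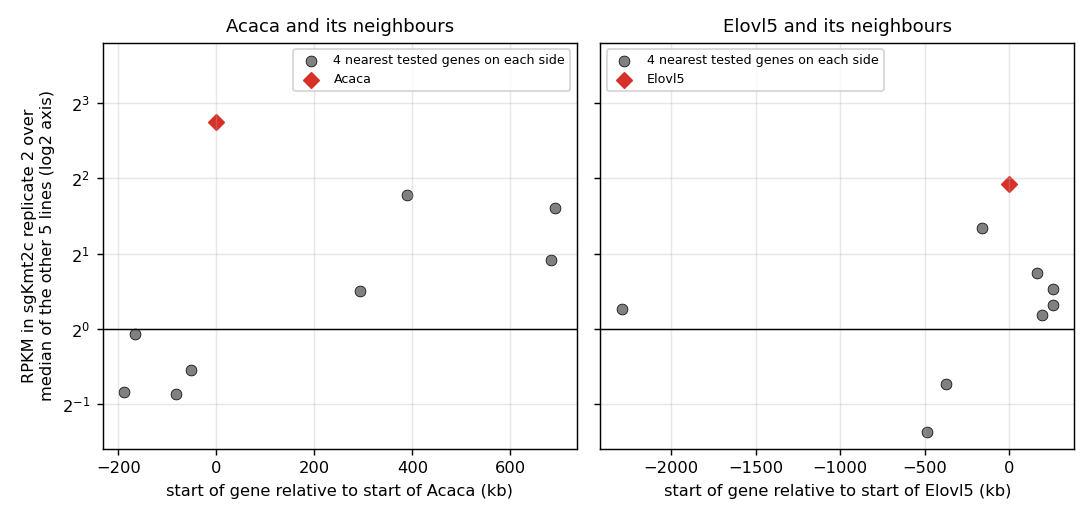
RPKM in sg*Kmt2c* replicate 2 divided by the median of the other 5 lines (vertical, log2 axis) for *Acaca* (left) and *Elovl5* (right), shown as red diamonds, and for the 8 nearest tested genes of each, shown as grey circles by distance in kb between gene starts (horizontal). The diamonds stand at 6.72 and 3.80, and the neighbours reach 3.43 and 2.54.

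The stearoyl-CoA desaturases, which turn saturated into monounsaturated fatty acids, differed from each other. *Scd2* lay at 245, 369 and 294 RPKM in sg*Trp53* lines against 821, 368 and 405 RPKM in sg*Kmt2c* lines, highest in replicate 1 like the sterol enzymes (log2 fold change 0.73, -0.10 to 1.57, adjusted p = 0.608 from limma). *Scd1*, the form typical of adult liver, lay at 41.4, 76.5 and 38.7 against 40.1, 64.0 and 59.1 RPKM, with sg*Trp53* replicate 2 the highest line. It was the member whose highest line was sg*Trp53*.

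The listed transcript lengths bear on levels between genes but not on differences between lines. For 5 members (*Lss*, *Ebp*, *Scap*, *Acaca* and *Elovl6*) the listed length was under 50% of the longest coding transcript in GENCODE, so RPKM overstates their level. Set to the longer length, the highest mean level in sg*Trp53* lines was that of *Scd2*, at 302 RPKM, ahead of *Fasn* at 126, and the lowest among the members tested was that of *Tm7sf2* at 2.31. On that scale *Acaca* stood at 18.8 and *Lss* at 15.8.

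Other genes of lipid metabolism were read from 4 lists outside the members, of which 47 of 49 genes were tested. None passed an adjusted p under 0.05 (limma, smallest 0.388). At an unadjusted p under 0.05, 4 were higher and 1 was lower, where 8.58% of all tested genes passed in either direction. The median log2 fold change was -0.03 over 13 further genes of sterol synthesis and its control, 0.34 over 15 further genes of fatty acid synthesis and activation, 0.28 over 10 genes of sterol efflux and storage and 0.04 over 9 genes of fatty acid oxidation.

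*Acsl3*, an acyl-CoA synthetase, had the smallest p of these genes, at 14.7, 19.9 and 15.3 RPKM in sg*Trp53* lines and 80.1, 29.4 and 44.5 RPKM in sg*Kmt2c* lines (log2 fold change 1.46, standard error 0.372, adjusted p = 0.388 from limma). *Slc25a1*, the carrier that exports citrate from mitochondria for lipid synthesis, lay at 39.6, 34.2 and 24.0 against 138, 49.1 and 64.3 RPKM (log2 fold change 1.22, with an adjusted p between those of *Acsl3* and *Mbtps2*). In both the groups did not overlap, as for 5.72% of all tested genes on that side. The sg*Kmt2c* lines of both stood in the order replicate 1, then 3, then 2, as for 18.7% of all tested genes. *Mbtps2*, a membrane protease that releases SREBP, lay at 44.6, 21.4 and 25.3 against 72.4, 45.9 and 44.4 RPKM and also lies on the X chromosome (0.85, adjusted p = 0.570 from limma).

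On the side of sterol excess, *Nr1h3*, the oxysterol receptor LXR alpha, lay at 2.48, 1.42 and 1.32 RPKM in sg*Trp53* against 32.6, 8.06 and 3.30 RPKM in sg*Kmt2c* lines, and its fitted difference was 2.02 on the log2 scale (limma, adjusted p = 0.528), or 1.21 without sg*Kmt2c* replicate 1. *Abca1*, a cholesterol exporter and a target of that receptor, lay on the other side, at 2.19, 15.1 and 2.31 against 0.0827, 0.476 and 0.615 RPKM (-2.01, adjusted p = 0.493 from limma). Both genes separated the genotypes without overlap, in opposite directions. Of all tested genes 5.72% separated with sg*Kmt2c* on the upper side and 10.4% on the lower, and of the 47 tested in the other lists 6 and 2. Both rested on few reads, with 30, 15 and 18 for *Nr1h3* in sg*Trp53* lines and 4, 18 and 27 for *Abca1* in sg*Kmt2c* lines.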

How the data were processed

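RNA-seq was measured in 6 liver tumor cell lines, 3 per genotype, with groups and replicate numbers from the sample labels. According to the methods and the submitters' processing notes, the authors trimmed reads with Trimmomatic, aligned them to GRCm38 with STAR, counted them with HTSeq and deposited RPKM values on 1 listed transcript length per gene. Use of strand in counting is not given in the sources used here, so overlapping genes are uncertain. The table has 21065 entries, 209 of them without values, and 6 columns of other samples that were not used. The authors' DESeq2 table (mean normalized count, log2 fold change with its error, statistic and p-values) was not used.

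RPKM times length gave whole reads, within 0.01 of a read, for 100% of values above 0. The test took genes that reached an RPKM of 1 in 3 or more libraries and was made with limma 3.58.1 in R 4.3.3 (lmFit, eBayes with trend) on log2(RPKM + 1), genotype being the only term, with Benjamini-Hochberg adjustment. Fold changes on this scale understate those of low genes. Intervals are 95%, and p-values for single genes from 3 lines against 3 cover the spread between these lines only. The fit was tested on simulated data with changes larger than any of the members, so this does not show its power for changes of their size. No library was a copy of another, since lines of 1 genotype differed by more than counting noise. Motifs were counted in RefSeq promoter windows.

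All members were named. Values per line were to be given for members with an unadjusted p under 0.05 or without overlap, for the regulators and for the 3 members of widest range, and the values of other members were added by role. Of the other lists, genes with an unadjusted p under 0.05 were named. The members and lists were chosen with earlier results of these data known. Alternatives changed the pseudocount, filter, scaling, moderation, pairing and lines.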

Additional observations from a re-analysis of the deposited data

How the results depend on the processing

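The result that no member passed an adjusted p under 0.05 (limma) held under all 17 alternatives run, 11 of which did not leave out a line. Planned tests of the recovered reads with edgeR and DESeq2 were not run, since the deposited values are RPKM; limma voom was chosen after seeing the data. The number of members at an unadjusted p under 0.05, all higher, was 3, against 8.58% of all tested genes in either direction. It was 4 with pseudocount 0.1 (8.31% of all genes), 5 with quantile normalization (8.32%) and 5 with median-of-ratios scaling (8.25%). The count was also 5 with limma voom under that scaling (7.95%) and with sg*Kmt2c* replicates 2 and 3 counted as 1 sample (9.06%). With the replicate number as a block (replicate block) it was 6 (9.34%). *Hsd17b7* did not pass with the block, with those replicates as 1 sample, without a filter or with an RPKM of at least 5, and in the last pair the count of 3 held *Sc5d* in its place. Lines of the genotypes share only a number: deviations from the genotype means correlated at 0.19, 0.40 and 0.03 in same-numbered pairs, and replicate 3 of each genotype correlated better with another number. The count in the other lists, 5, was 3 with an RPKM of at least 5, where fewer genes were tested. With each line left out in turn, 0 to 15 members were higher and 0 to 2 lower at that threshold, 1 to 6 genes of the other lists passed it, and the median log2 fold change was 0.35 to 0.65 over members, 0.35 to 0.84 over sterol enzymes and -0.030 to 0.42 over fatty acid enzymes.

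The direction of *Fasn* reversed to 0.018 with median-of-ratios scaling and 0.013 with voom under that scaling. With sg*Kmt2c* replicates 2 and 3 as 1 sample, *Dhcr7* (-0.093), *Acly* (-0.014) and *Scd1* (-0.0015) reversed. In fits without a line, lowest and highest log2 fold changes spanned 0 for *Pmvk* (-0.15 to 0.23), *Mvd* (-0.20 to 0.46), *Fdps* (-0.056 to 0.84), *Dhcr7* (-0.33 to 0.31), *Srebf2* (-0.00081 to 0.38), *Scap* (-0.11 to 0.38), *Stard4* (-0.75 to 0.15), *Acly* (-0.31 to 0.66), *Me1* (-0.32 to 0.80), *Acaca* (-0.24 to 1.46), *Fasn* (-0.32 to 0.25), *Elovl5* (-0.30 to 0.85) and *Scd1* (-0.077 to 0.40). The cause was not tested. Over all genes, the 15 calls became 0 to 7 without a line, 3 to 6 with pseudocount 0.1 (6), no filter (5) or voom (4, or 3 when scaled), and 0 with the block or with those replicates as 1 sample. The depth limits low members such as *Tm7sf2* and *Acacb*.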
